A study of Rattus norvegicus with 20 samples.

Results

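The comparison described here set ovaries of young female rats whose dams had received 60 mg of a brominated flame retardant mixture per kg body weight per day against ovaries of rats whose dams had received 20 mg/kg/day. The arrays were chosen by the dose in their labels: 6 at 60 mg/kg/day and 5 at 20, which makes 11 of the 20 arrays of the study. Each array holds RNA of the entire ovary of 1 Sprague Dawley female killed on postnatal day 46, and the animals of a group came from independent litters per the labels. Dams ate the mixture in their diet from at least a week before mating until weaning on postnatal day 21, at 250 mg per kg of diet for the 20 mg/kg/day group and 750 for the 60 mg/kg/day group. Polybrominated diphenyl ethers made up most of the mixture, with DE-71 at 52.1%, BDE-209 at 44.2% and DE-79 at 0.4%, and hexabromocyclododecane was 3.3% of it. The doses are those the diets were designed to deliver to the dams, and tissue levels were not part of the files. The other arrays are 5 at 0 mg/kg/day, whose dams ate the diet without the mixture, and 4 at 0.06 mg/kg/day, from a diet with 0.75 mg of mixture per kg; they entered the fit and are quoted only where they place a value.

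At this age the rat ovary holds follicles of every stage, and corpora lutea appear around puberty. In a follicle the oocyte is surrounded by granulosa cells, which make inhibin, anti-Müllerian hormone and oestrogen, and by theca cells, which make androgens. The growing oocyte makes its own coat, the zona pellucida, from the ZP glycoproteins, and secretes the growth factors GDF9 and BMP15, which act on granulosa cells. RNA of a whole ovary is therefore a mixture of few large oocytes and many somatic cells, and fewer cells of a type cannot be told apart from less RNA per cell.

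All levels below are log2 of the processed Cy3 signal minus log2 of that array's 75th percentile, so 0 is the brightness of a probe at the 75th percentile. They compare 1 probe between arrays and not 1 gene with another. A difference is the level at 60 minus the level at 20 mg/kg/day from a limma fit with the slide as a block, with its standard error (SE), and 1 on this scale is a doubling. The 75th percentile lay between 1158 and 1725 intensity units on the 11 arrays, and 75.05% to 80.0% of spots were well above background. The defining markers of the ovary were bright. Inha, the inhibin alpha chain, stood at 5.35 ± 0.20 (SD, n = 5) at 20 and 5.53 ± 0.21 (SD, n = 6) at 60. Cyp11a1, which starts steroid synthesis from cholesterol, stood at 6.98 ± 0.31 and 7.18 ± 0.20. The mean over 17 oviduct epithelium markers was -3.21 to -1.57 at 20 and -3.20 to -1.77 at 60. The arrays came on 3 slides, and the doses were spread unevenly over them: slides 1, 2 and 3 hold 1, 1 and 3 arrays at 20, and 2, 3 and 1 at 60. Slide differences were large, with 4454 of 23258 probes past an adjusted p of 0.05 for slide in limma.

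No probe passed the threshold between the doses. limma called 0 of 23258 probes (0%) at an adjusted p of 0.05, with a lowest adjusted p of 0.781, while 1155 probes (4.97%) had an unadjusted p under 0.05. Of these, 516 (2.22% of all probes tested) were higher at 60 and 639 (2.75%) were lower, so 44.7% of them were higher. That split depended on the scaling and on the slide: it was 57.2% higher after quantile normalization, 32.3% with slide as a random block and 13.7% without the slide block. The median difference over all probes was -0.03, the median size of a difference was 0.11 and 94.8% of probes differed by less than 0.5. The median 95% interval reached 0.31 to each side. On simulated arrays of these groups limma recovered 46.0% of probes changed 1.5-fold and 78.8% of those changed 2-fold. The simulated noise was independent between probes and arrays and 200 probes changed at once, so these shares need not hold for the measured arrays. The groups did not overlap for 58 probes (0.249%), 14 of them higher at 60 (0.0602%) and 44 lower (0.189%). Everything below is therefore a description of differences that did not pass, and "higher" and "lower" give only the sign of a measured difference.

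**Figure D1:**
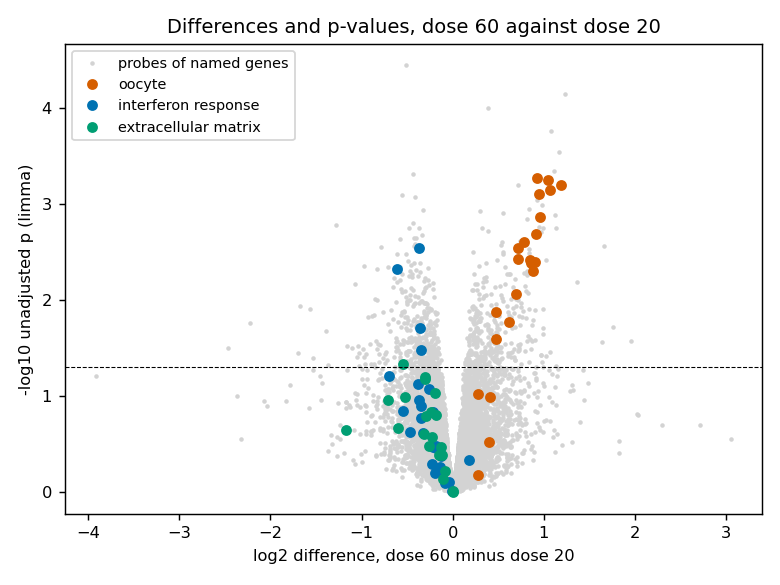
Log2 difference between 60 and 20 mg/kg/day (x axis) against -log10 of the unadjusted p of limma (y axis), for probes of named genes in grey, with the genes of 3 lists coloured. The dashed line is an unadjusted p of 0.05; oocyte genes lie to the right, between 0.28 and 1.19, and interferon response and extracellular matrix genes lie mostly to the left of 0.

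Genes made by the oocyte were the group that stood farthest from 0. Of 30 genes on an oocyte list, 22 were measured, and all 22 were higher at 60 than at 20 mg/kg/day, where 41.4% of all probes and 44.2% of 12452 named genes (1 probe each) had a difference above 0. Of these, 18 had an unadjusted p under 0.05, where 2.22% of all probes were higher at such a p and 5.06% of named genes differed either way at it, and 0 passed the adjusted threshold. The median difference of the 22 genes was 0.82, against -0.03 over all probes, and the members ran from 0.28 to 1.19. The groups overlapped for each of the 22. Most of these genes rose and fell together from array to array. They are thus not separate observations of the doses, and the shares beside the counts are no test.

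Promoters of zona pellucida genes are shown because these genes had some of the largest differences of the list. The promoter of Zp2 is not shown. FIGLA, an oocyte transcription factor, is known to act on zona pellucida genes through an E-box, a short motif read by helix-loop-helix factors. The sequences are the 150 bases before the annotated start in RefSeq (assembly GRCr8), 5' to 3' on the gene's strand, with the E-box CACCTG or its reverse complement CAGGTG in capitals. Zp1 lies on the minus strand at chr1:216992149-216992298, Zp3 on the minus strand at chr12:26334127-26334276 and Zp4 on the minus strand at chr17:63703701-63703850.
Zp1: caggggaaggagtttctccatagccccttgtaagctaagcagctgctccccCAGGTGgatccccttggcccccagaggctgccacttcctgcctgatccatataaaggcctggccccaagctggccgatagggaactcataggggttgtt
Zp3: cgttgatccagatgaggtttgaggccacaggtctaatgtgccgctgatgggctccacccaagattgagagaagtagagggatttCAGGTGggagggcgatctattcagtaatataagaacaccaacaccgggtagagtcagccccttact
Zp4: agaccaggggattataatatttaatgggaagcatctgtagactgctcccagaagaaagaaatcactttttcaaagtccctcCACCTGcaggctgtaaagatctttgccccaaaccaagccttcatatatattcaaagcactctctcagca
The motif began 99 bases before the start of Zp1, 66 before that of Zp3 and 69 before that of Zp4. A promoter was found for 18 of the 22 oocyte genes, and 12 of the 18 (66.7%) held CACCTG on either strand in the 250 bases before the start, against 15.9% of 33469 rat promoters of the same length. Those of Gdf9 and Bmp15 held none. The looser motif CANNTG, of which CACCTG is one form, was in 16 of the 18 and in 65.5% of all promoters. The motif was chosen after these promoters had been read, and a match of letters is no measurement of binding.

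Zp2, a zona pellucida glycoprotein, had the largest difference of the list. Its level at 20 mg/kg/day was -0.83, -0.87, -0.80, -1.08 and -1.32 on the 5 arrays. At 60 the lowest array was at -0.97, the median at 0.01 and the highest at 0.87. Of the arrays at 60, 5 of 6 lay above every array at 20, and replicate 4 lay among them. The difference was 1.19 (SE 0.28, 95% interval 0.59 to 1.78), or 2.28-fold, with an adjusted p of 0.878 in limma.

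Zp1, another coat protein, read -0.91, -1.14, -1.21, -1.29 and -1.82 at 20 and ran from -1.24 over a median of -0.29 to 0.30 at 60. Zp3, a coat protein that takes part in sperm binding, read 0.16, -0.19, -0.06, -0.30 and -0.55 at 20 and ran from -0.04 over 0.62 to 1.36 at 60. Zp4, which rats have in their coat besides these, read -3.32, -3.31, -3.28, -3.76 and -3.72 at 20 and ran from -3.40 over -2.63 to -1.94 at 60. In each of these 3 genes 4 of the 6 arrays at 60 were above every array at 20, and replicates 4 and 5 were not. The differences were 1.05 (SE 0.25) for Zp1, 0.92 (SE 0.21) for Zp3 and 0.96 (SE 0.25) for Zp4, each with an adjusted p of 0.878 in limma.

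The secreted oocyte factors lay on the same side. Gdf9 read -0.43, -0.69, -0.74, -0.70 and -1.28 at 20 and ran from -0.95 over 0.04 to 0.74 at 60, a difference of 0.91 (SE 0.27). Bmp15 was dim, at -5.89, -6.24, -5.45, -5.28 and -6.08 at 20 and from -6.23 over -5.26 to -4.80 at 60, a difference of 0.71 (SE 0.20). For Gdf9, 4 arrays at 60 were above all those at 20, and for Bmp15 3 were.

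Further members act in the egg's cytoplasm, chromatin and meiosis. The difference was 1.07 for Tcl1a, an activator of AKT signalling, and 0.94 for Astl, the ovastacin protease that hardens the coat after fertilization. It was 0.92 for the chromatin chaperone Npm2, 0.88 for the oocyte linker histone H1f8, 0.86 for Oas1d and 0.85 for Zar1, a maternal mRNA-binding protein. Mos, the kinase that holds the egg in meiosis, differed by 0.78, the cell survival gene Bcl2l10 by 0.72 and Padi6, of the cytoplasmic lattices, by 0.70. The transcription factor Lhx8 differed by 0.62, and the maternal factors Khdc3 and Dppa3 by 0.48 each. All of these had an unadjusted p under 0.05.

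The smallest differences belonged to the 4 members whose unadjusted p was above 0.05. Nobox, a transcription factor of early follicles, differed by 0.41 (SE 0.23). Kit, the receptor for the granulosa signal KITLG and also made by theca and other cells, differed by 0.40 (SE 0.37), and Uchl1, a deubiquitinating enzyme, by 0.28 (SE 0.16). Ddx4, the germ cell helicase, was not well above background on any array at 20 and was so on 2 of 6 at 60, so its difference has no measured base, though it is counted among the 22. Kitlg itself, made by granulosa cells, differed by -0.02 (SE 0.10), and of 2 further probes for it 1 disagreed in sign.

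**Figure D2:**
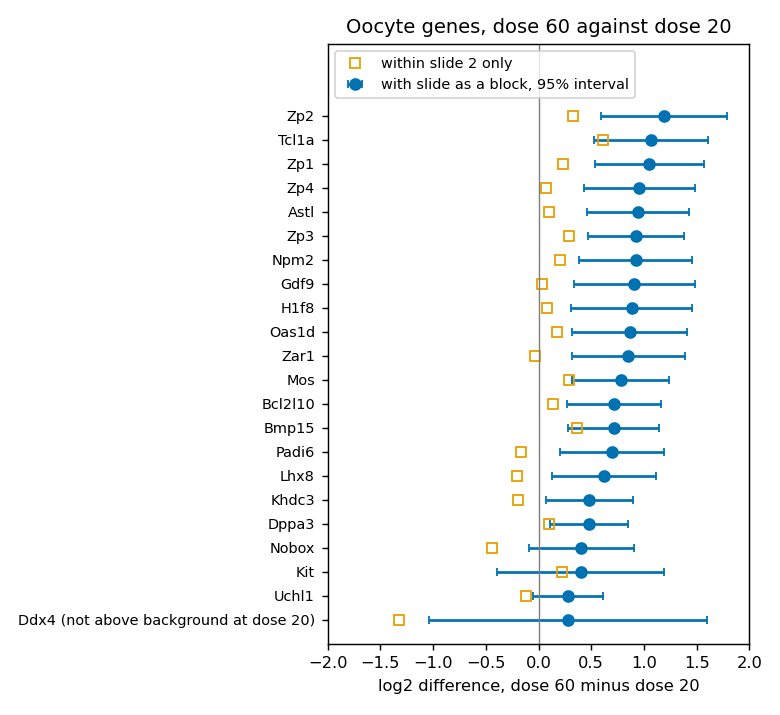
Log2 difference between 60 and 20 mg/kg/day for the 22 oocyte genes measured. Filled points and bars are the limma estimate with slide as a block and its 95% interval, and open squares are the difference on slide 2 alone (1 array at 20, 3 at 60). All 22 filled points lie above 0, and the squares have a median of 0.10.

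The oocyte genes differed between slides in how far apart the doses stood. Within slide 1 the median difference of the 22 genes was 0.98 and within slide 3 it was 1.11, but within slide 2 it was 0.10. Slide 2 holds replicates 3, 4 and 5 of the 60 mg/kg/day group and replicate 2 of the 20 group. In all, 15 of 22 genes were higher at 60 on all 3 slides. Without slide 3 the number of genes at an unadjusted p under 0.05 was 4 of 22, and without the slide block it was 11. Leaving out 1 array at a time gave 17 to 20 genes and a median of 0.68 to 1.05.

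Summed up per array, the mean level of the 22 genes was -2.38, -2.51, -2.38, -2.41 and -2.91 at 20 mg/kg/day. At 60 it was -1.29, -1.58, -2.14, -2.68, -2.61 and -1.58 on replicates 1 to 6. Replicates 4 and 5 at 60 lay within the range at 20 and the others above it. The arrays at 0 mg/kg/day covered much of the same ground, with -2.46, -2.46, -2.32, -1.59 and -1.67, as did those at 0.06, from -2.79 to -1.89.

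**Figure D3:**
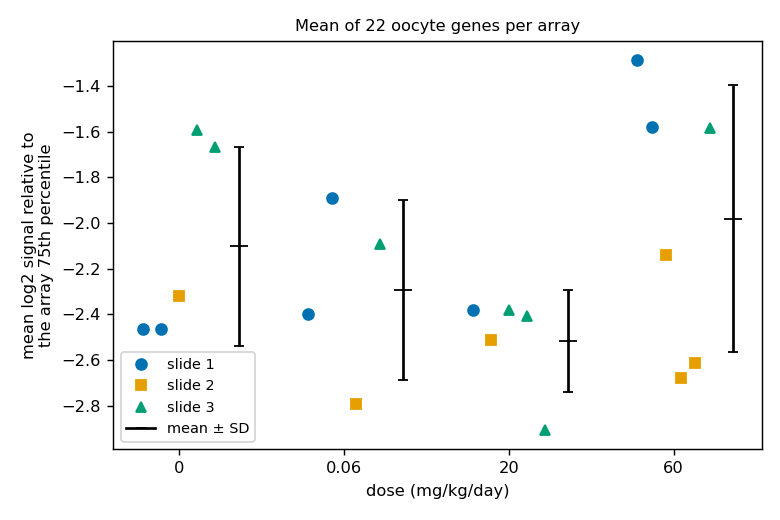
Mean log2 level of the 22 oocyte genes on each of the 20 arrays (y axis, relative to the array's 75th percentile) by dose in mg/kg/day, coloured by slide, with mean and SD per dose. The arrays at 20 lie between -2.91 and -2.38, and 4 of the 6 at 60 lie above them, while replicates 4 and 5 on slide 2 do not.

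The other groups place these values. Against 0 mg/kg/day the oocyte genes had a median difference of 0.35 at 60, with 21 of 22 higher and 3 higher at an unadjusted p under 0.05 (2.50% of all probes were so). At 20 the median difference from 0 was -0.47, with 22 of 22 lower and 6 lower at such a p (2.70% of all probes). Against 0.06 mg/kg/day the medians were 0.51 at 60 and -0.30 at 20. These comparisons share arrays with each other and with the main one, and limma called 0 probes (0%) in each of them. The probes at an unadjusted p under 0.05 numbered 1338 (5.75%) for 60 against 0 and 1427 (6.14%) for 20 against 0. They numbered 1024 (4.40%) for 60 against 0.06 and 634 (2.73%) for 20 against 0.06. Relative to the untreated group the median was thus above 0 at 60 and below 0 at 20. Zp2, for one, averaged -0.44 at 0, -0.56 at 0.06, -0.98 at 20 and -0.02 at 60.

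Among granulosa genes of growing follicles, 12 of 17 were higher at 60 (41.4% of all probes were so), with a median difference of 0.10. At an unadjusted p under 0.05, 3 were higher, as were 2.22% of all probes. The median was 0.21 without replicate 3 at 20, 0.056 without the slide block and -0.06 within slide 2. Amh, made by granulosa cells of small growing follicles, read 0.87, 0.09, 0.30, 1.28 and -0.24 at 20 and ran from 0.04 over a median of 1.07 to 1.76 at 60. The ranges overlapped widely, with 2 of 6 arrays at 60 above all at 20, and the difference was 0.82 (SE 0.34). Fshr, the receptor for follicle-stimulating hormone, differed by 0.48 (SE 0.19), and Amhr2, the receptor for anti-Müllerian hormone, by 0.41 (SE 0.19). The inhibin and activin chains Inha, Inhba and Inhbb differed by 0.17 (SE 0.11), 0.34 (SE 0.30) and -0.0009 (SE 0.17). Of the 5 genes lower at 60, Fst had the largest difference, at -0.20 (SE 0.25). The list means lay between 0.37 and 0.63 at 20 and between 0.34 and 0.88 at 60, where replicates 4 and 5 were again the lowest.

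In the TGF-beta and BMP pathway, through which GDF9, BMP15 and AMH signal, 18 of 25 genes were higher at 60, with a median difference of 0.10. Without the slide block the median was 0.025, and within slides 1, 2 and 3 it was 0.16, 0.016 and 0.024. Bmpr2, the type 2 receptor used by GDF9 and BMP15, was at -1.08, -2.10, -2.01, -1.58 and -1.33 at 20 and ran from -1.49 over -0.78 to -0.33 at 60. Of the arrays at 60, 5 of 6 were above every array at 20. The difference was 0.91 (SE 0.25) with an adjusted p of 0.878 in limma, and on slides 1, 2 and 3 it was 0.62, 0.98 and 0.89. Tgfbr2, the type 2 TGF-beta receptor, differed by -0.32 (SE 0.12). These were the 2 members at an unadjusted p under 0.05, as were 5.06% of named genes.

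Interferon response genes lay on the lower side. Of 27 measured, 26 were lower at 60 than at 20, with a median difference of -0.23, and 4 had an unadjusted p under 0.05 (2.75% of all probes were lower at such a p). Ifi44, an interferon-induced gene, read 0.77, 0.78, 0.64, 0.73 and 0.75 at 20 and ran from 0.15 over 0.44 to 0.56 at 60. All 6 arrays at 60 were below all 5 at 20, as was so for 0.189% of probes. The difference was -0.37 (SE 0.10, adjusted p 0.878 in limma). Psmb8, a subunit of the immunoproteasome that trims peptides for antigen presentation, read 1.44, 1.67, 1.16, 0.72 and 1.44 at 20 and ran from 0.47 over 0.88 to 1.08 at 60, a difference of -0.61 (SE 0.19). Gbp2, a guanylate-binding protein, differed by -0.36 and Stat2, a transcription factor of interferon signalling, by -0.34. Irf7 had the largest difference of the list at -0.69, and the exception was Isg20 at 0.17. Within slides 1, 2 and 3 the list's median was -0.64, -0.27 and -0.02. Without replicate 1 at 20, the only array of that dose on slide 1, the median was -0.12 and 21 genes were lower.

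Markers of immune cells did not share one sign. The 21 macrophage and monocyte genes had a median difference of -0.08, with 14 lower, a sign that turned to 0.10 without replicate 1 at 20 and to 0.02 without the slide block. Their mean ran from -1.17 to -0.58 at 20 and from -1.28 to -0.33 at 60. Fcgr3a, an Fc receptor of macrophages and NK cells, was the member of smallest p, at -1.03 (SE 0.45). Of 17 T, B and NK cell genes 10 were higher, with a median of 0.07 (0.21 without replicate 1 at 20 and 0.019 without replicate 2) and list means of -4.62 to -3.97 at 20 and -4.54 to -4.14 at 60. Cd7, a T and NK cell surface protein, was lower on all 6 arrays at 60 than on any at 20, as was so for 0.189% of all probes. It differed by -0.33 (SE 0.14), while Cd8b, the beta chain of the CD8 coreceptor, differed by 0.37 (SE 0.11). The part of immune cell content in the interferon values was not tested.

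Genes of the extracellular matrix, smooth muscle and stroma were lower at 60 in most cases. Of 21 matrix genes 20 were lower, where 41.4% of all probes had a difference above 0, and the median difference was -0.23. Only 1 had an unadjusted p under 0.05 (2.75% of all probes were lower at such a p). That gene was Col1a1, a chain of type I collagen, which read 4.82, 5.15, 5.17, 4.30 and 5.30 at 20 and ran from 3.93 over 4.55 to 5.20 at 60, a difference of -0.54 (SE 0.25) between groups that overlapped. Its partner chain Col1a2 differed by -0.31 and the basement membrane collagen Col4a1 by -0.30. Tenascin C, Tnc, had the largest difference of the list at -1.17.

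Of 20 smooth muscle and pericyte genes, 16 were lower, with a median of -0.17. Acta2, smooth muscle actin, read 0.35, 0.64, 0.72, 0.63 and 1.21 at 20 and ran from -0.10 over 0.20 to 0.59 at 60, a difference of -0.50 (SE 0.23), and the contractile genes Cnn1 and Mylk differed by -0.49 and -0.33. Of 16 stromal fibroblast genes 12 were lower, with a median of -0.13 (-0.22 without replicate 2 at 20), and Nr2f2, a nuclear receptor of stromal cells, differed by -0.24 (SE 0.09) with 5 of 6 arrays at 60 below all at 20. The medians of all 3 lists were below 0 within each slide, and the matrix and stromal lists share Col1a1. At 20 the matrix genes had a median of 0.42 against 0 mg/kg/day, with 18 of 21 higher, and at 60 it was 0.08, with 14 of 21 higher.

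**Figure D4:**
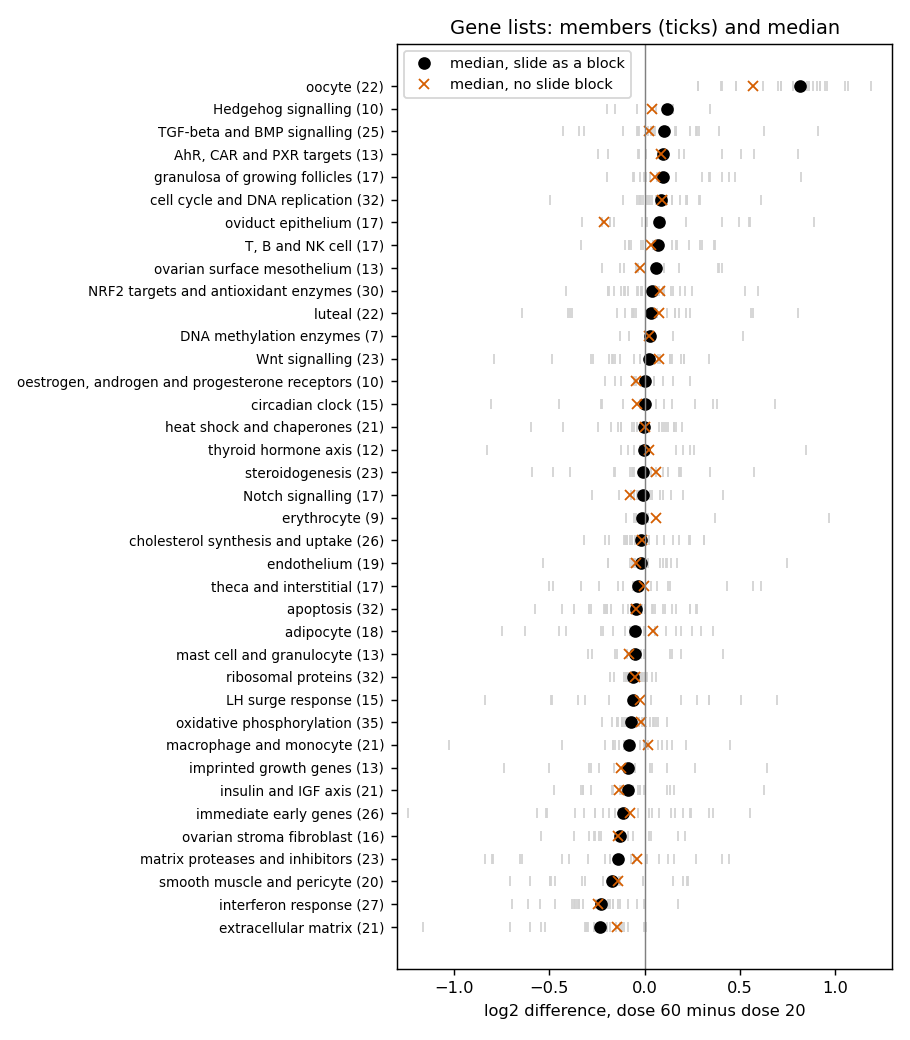
Log2 differences between 60 and 20 mg/kg/day for 38 gene lists, with the number of genes measured in parentheses; ticks are genes within the plotted range, circles the list medians with slide as a block and crosses those without it. The oocyte list has the highest median (0.82, or 0.57 without the block), and the extracellular matrix and interferon lists have the lowest (-0.23 each).

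Steroid synthesis, the endocrine work of theca, granulosa and luteal cells, showed no shared sign. Of 23 genes 11 were higher and 12 lower, with a median of -0.01 and 0 at an unadjusted p under 0.05 (5.06% of named genes were so). Star, which carries cholesterol into mitochondria, differed by -0.06 (SE 0.22, 95% interval -0.53 to 0.41). Hsd3b1, the 3-beta-hydroxysteroid dehydrogenase, differed by -0.05 (SE 0.08, interval -0.23 to 0.12), and Cyp11a1 by 0.18 (SE 0.17, interval -0.18 to 0.54). The receptors for luteinizing hormone, prolactin and prostaglandin F, Lhcgr, Prlr and Ptgfr, differed by 0.57 (SE 0.86), 0.16 (SE 0.23) and 0.12 (SE 0.34). The oestrogen receptors Esr1 and Esr2 differed by -0.21 (SE 0.24) and 0.10 (SE 0.19). The progesterone-degrading enzyme Akr1c18, listed now as Akr1c3, differed by -0.39 with an SE of 1.96 in the fit to all 20 arrays. Its level was 5.79 ± 0.34 (SD, n = 5) at 20 and 6.04 ± 0.63 (SD, n = 6) at 60. On these 11 arrays alone the difference was 0.036. For each gene named in this list or among these receptors the sign changed under at least 1 alternative setting. Luteal genes were 12 higher and 10 lower, and cholesterol genes 12 higher and 14 lower.

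Targets of the receptors that sense foreign chemicals were also within the spread. Of 13 genes driven by AhR, CAR or PXR, 9 were higher at 60 and 0 had an unadjusted p under 0.05, with a median of 0.10 that was 0.039 without replicate 2 at 20 and 0.24 without replicate 1. Cyp1b1, an AhR target, differed by 0.57 (SE 0.46), and Ephx1, an epoxide hydrolase, by 0.81 (SE 0.59). Of 30 NRF2 and antioxidant genes 17 were higher, with a median of 0.04 and 0 at such a p. In the thyroid hormone list 6 of 12 were higher, and its 1 gene at such a p was Crym, which codes for a thyroid hormone binding protein. Over all named genes, 5.06% had such a p in either direction. Crym read 2.02, 1.55, 2.07, 2.02 and 1.61 at 20 and ran from 1.66 over 2.61 to 3.47 at 60, with 4 of 6 arrays above all those at 20 and a difference of 0.85 (SE 0.26, adjusted p 0.878 in limma).

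Among growth and survival genes, Pik3r1, the regulatory subunit of PI3 kinase, read -2.06, -2.17, -1.88, -1.72 and -2.50 at 20 and ran from -1.70 over -1.57 to -1.0 at 60. All 6 arrays at 60 were above all 5 at 20, as was so for 0.0602% of probes, and the difference was 0.63 (SE 0.27). Of the 21 genes of the insulin and IGF axis, Pik3r1 among them, 17 were lower, with a median of -0.09. Without replicate 2 at 20 the count was 13 and the median -0.030, and after quantile normalization the median was -0.039. Igf2 differed by -0.28 (SE 0.15) and the binding protein Igfbp6 by -0.32 (SE 0.17). Of 32 cell cycle genes 25 were higher, with a median of 0.09 (0.034 without replicate 2 at 60), and Ccne2, a cyclin of the entry into S phase, differed by 0.61 (SE 0.23). Of 32 apoptosis genes 13 were higher. The executioner caspase Casp6 differed by 0.24 (SE 0.08), the death receptor Fas by -0.58 (SE 0.18) and the initiator caspase Casp9 by -0.21 (SE 0.08). The clock genes Bmal1 and Per2 differed by 0.38 (SE 0.17) and 0.68 (SE 0.31) in a list of 15 with a median of 0.00.

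Ribosomal proteins and oxidative phosphorylation had small shifts. Of 32 ribosomal genes 28 were lower, with a median of -0.06, and of 35 oxidative phosphorylation genes 29 were lower, with a median of -0.07. After quantile normalization the medians were 0.01 and 0.00, so the direction is not settled by these arrays.

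Outside the lists, the gene with a regular symbol that was higher at 60 with the smallest p was Kctd6, an adaptor of a cullin ubiquitin ligase. It read -2.65, -2.81, -2.67, -2.61 and -2.75 at 20 and ran from -2.50 over -2.41 to -2.14 at 60. The groups did not overlap, as was so in this direction for 0.0602% of all probes, and Kctd6 was picked by its small p. The difference was 0.38 (SE 0.07, adjusted p 0.781 in limma) and was 0.48, 0.39 and 0.17 on the 3 slides. Wfdc3, a whey acidic protein domain gene, differed by 1.08 (SE 0.22), with 4 of 6 arrays above all those at 20, and Serpinf2, which codes for alpha-2-antiplasmin, by 1.11 (SE 0.25), with 5 of 6 above. Serpinf2 was not well above background on 1 of 5 arrays at 20. Kbtbd8 differed by 0.72, B3gat2 by 0.84, Ankrd12 by 0.55 and Rassf7 by 0.30. The other 5 of the 12 genes taken on this side were the oocyte genes Zp3, Zp1, Zp2, Tcl1a and Astl.

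The genes lower at 60 with the smallest p were mostly dim. Or4c122, an olfactory receptor gene, read -5.88, -6.08, -5.26, -4.84 and -5.10 at 20 and ran from -6.77 over -6.40 to -5.65 at 60, where it was well above background on 3 of 6 arrays. Its difference was -0.51 (SE 0.09, adjusted p 0.781 in limma) and -0.92 without the slide block. Or6b13 and Igf2bp2, an mRNA-binding protein, differed by -0.43 and -0.41 with the slide block and by -0.96 and -0.92 without it, and the other probe of Igf2bp2 had the opposite sign. Their levels were highest on slide 3, which holds 3 of the 5 arrays at 20.

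Slc16a5, of the monocarboxylate transporters, and Ap4m1, a subunit of an adaptor complex, were below every array at 20 on all 6 arrays at 60. This was so for 0.189% of all probes, and both genes were picked by their small p. Their differences were -0.56 (SE 0.14) and -0.37 (SE 0.10), and Slc16a5 was well above background on 4 of 6 arrays at 60. The prostacyclin receptor Ptgir differed by -0.32, the ubiquitin ligase genes Fem1b and Trim31 by -0.43 and -0.34, and Ano7, of the anoctamin family, by -0.42. The lectin Siglec15 differed by -0.40, the sorting nexin Snx29 by -0.58 and Smcr8, a partner of the C9orf72 protein, by -0.41.

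Among probes well above background on all 11 arrays, the largest differences mostly belonged to genes that were bright in some animals and dim in others. Cyp17a1, the theca enzyme that makes androgens, read 2.84, -3.45, 3.30, 3.37 and -3.49 at 20 and ran from -3.52 over 2.91 to 3.86 at 60. It was below 0 on 2 of 5 arrays at 20, on 1 of 6 at 60 and on 5 of all 20. The difference of 2.30 had an SE of 1.72 (95% interval -1.35 to 5.94), and without these arrays it was -0.32. Miox, an inositol oxygenase, was low on the same 3 arrays of the 2 doses, at -3.63 and -4.31 at 20 and -3.21 at 60, against -0.35 or more on the others. Lhcgr was lowest on them too, at -3.01, -3.36 and -3.63.

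Other genes were highest on those same 3 arrays. Ptprn, a protein of secretory granules, read 0.21 and 0.04 on them at 20 and 0.03 at 60, against -5.14 to -1.89 on the others. Pnoc, the precursor of nociceptin, read 0.39, 0.70 and 0.31 on them, and Cthrc1, a secreted collagen triple helix protein, 0.94, 0.81 and 1.04. Vgf, a neuropeptide precursor, read -1.57, -2.16 and -2.63 on them, against -4.10 or less on the others. The differences between the doses were -1.83 (SE 1.08) for Ptprn, -1.45 (SE 0.86) for Pnoc, -1.23 (SE 0.92) for Cthrc1 and -2.47 (SE 1.05) for Vgf. Without replicate 5 at 20 they were -0.92 for Pnoc and -0.76 for Cthrc1. The share of such animals, 2 of 5 and 1 of 6, was not tested.

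Hsd3b3, a 3-beta-hydroxysteroid dehydrogenase, read 5.20, 5.60, 6.09, 5.07 and 5.94 at 20 and ran from -3.77 over 4.81 to 5.67 at 60. Replicates 1 and 6 at 60 were at -3.77 and -1.04, and the other 4 overlapped the arrays at 20. The difference of -3.91 (SE 1.94, 95% interval -8.03 to 0.21) was the largest of all. The Hsd3b genes are near-identical copies, so which of them the probe reads is uncertain, and 1 array at 0 and 1 at 0.06 mg/kg/day were also below 0. Kcne2, a potassium channel subunit, was at -4.07 on replicate 2 at 60 and at 2.63 to 4.27 on the other 10 arrays, and without that array its difference of -1.27 (SE 1.1) was 0.02. Serpinc1, antithrombin, was above 0 on 1 of 5 arrays at 20 and on 4 of 6 at 60, with a difference of 1.82 (SE 1.66) that was 0.28 without replicate 6 at 60 and 3.39 without replicate 2 at 20.

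Aqp9 and Mmp13 were also among the largest differences. Aqp9, a water and glycerol channel, read -4.33, -4.54, -4.05, -4.27 and -3.09 at 20 and ran from -4.43 over -3.26 to -1.60 at 60, a difference of 1.36 (SE 0.44) between groups that overlapped. Mmp13, collagenase 3, differed by 1.31 (SE 1.22).

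**Figure D5:**
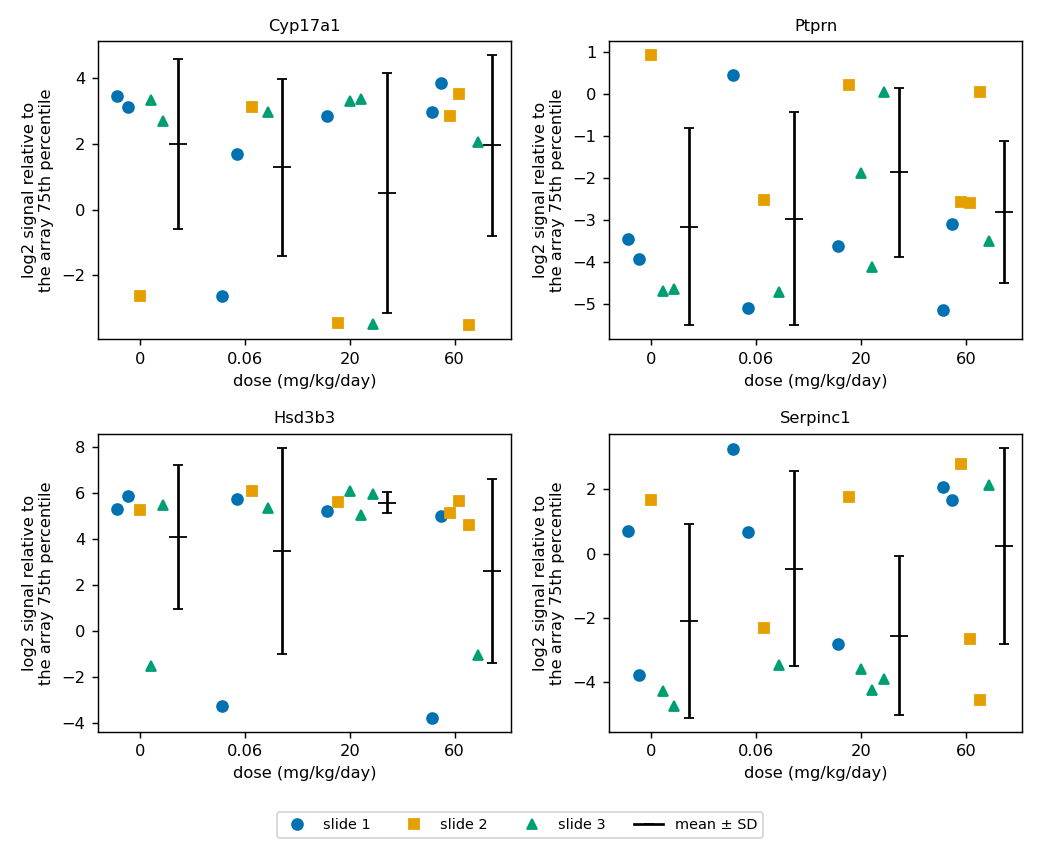
Log2 level of Cyp17a1, Ptprn, Hsd3b3 and Serpinc1 on each of the 20 arrays (y axes, relative to the array's 75th percentile) by dose in mg/kg/day, coloured by slide, with mean and SD per dose. Cyp17a1 is below 0 on 5 arrays spread over all doses, and Hsd3b3 is below 0 on replicates 1 and 6 at 60 but on no array at 20.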

How the data were processed

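Ovarian RNA (100 ng per rat) was hybridised to 1-colour Agilent arrays, 1 animal per array. Intensity was extracted with Feature Extraction 11.5.1.1 under GE1_1105_Oct12, per the file headers. The deposited processed signal is a linear intensity from which the scanner software had removed background. The deposited series table holds log2 values made by the authors; its baseline is unknown, it served only as an alternative, and its normalization is not given in the sources used here.

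From the processed signal, log2 was taken minus log2 of the array's 75th percentile over non-control spots. Outlier spots were left out, spots of a probe averaged, and 32 of 30367 probes dropped. The filter kept a probe seen well above background on 4 or more of the 20 arrays, which left 23258 probes and 12452 named genes. Accessions were matched to rat genes of RefSeq assembly GRCr8: 18758 probes had 1 symbol, 0 several and 11609 none. Array coordinates, on build rn4, were not used. Cyp19a1 was not analysed here.

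limma 3.58.1 (R 4.3.3) fitted dose and slide to all 20 arrays, with Benjamini-Hochberg adjustment at 0.05. The number of arrays limits the precision. On simulated data (200 changed probes, 5 runs) it recovered 46.0%, 78.8%, 88.4% and 93.2% of changes of 1.5, 2, 3 and 4-fold, and 5.78% of calls were false.

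The members of the comparison and the 38 gene lists were chosen with earlier results of these data known, and the lists are described by counts and medians on the brightest probe of each gene. Genes were named by a rule: the 12 higher and 12 lower of smallest p (well above background on all arrays of 1 dose or both), the 6 largest differences each way among probes well above background on all 11 arrays, 24 fixed genes of ovarian function and up to 3 members of smallest p per list. Irf7, Isg20, Stat2 and Tnc and the oocyte genes outside the rule were named after their values were seen.

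Alternatives were no slide block, slide as a random block, a replicate block and a spike-in block. The spike-in block marked arrays with a spike-in slope of 0 in the file headers, 3 arrays at 20 and 3 at 60. Quantile normalization, median scaling, normexp correction on the median signal (offset 50), outlier spots kept and other filters were further alternatives. So were array weights, the deposited table, the 11 arrays alone, and leaving out each slide and each array. Leaving out the 5 arrays with Cyp17a1 below 0 was added after seeing the data.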

Additional observations from a re-analysis of the deposited data

Results flagged for a closer look

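In 17 of 184 groups of 5 or 6 arrays (the genes named by rank or fixed, and the list means) 1 array stood far from the rest. The rule flags about 1 of 20 groups if they are independent and not chosen by their values. Many of these genes were chosen by their values and some lists share genes, so the count is no measure of an excess. Replicate 5 at 60 mg/kg/day accounted for several: Cyp17a1 at -3.52 (the nearest other array at 2.05), Miox at -3.21, Lhcgr at -3.63, Pnoc at 0.31, Cthrc1 at 1.04 and the mean of the genes answering the luteinizing hormone surge at -0.62. Replicate 6 at 60, the only array of its dose on slide 3, stood above the others in Or6b13 at -5.27, Igf2bp2 at -1.45, Trim31 at -4.71, Ano7 at -5.68 and the mean of oviduct epithelium markers at -1.77. Replicate 2 at 60 was alone in Kcne2 at -4.07. At 20 mg/kg/day, Ap4m1 on replicate 1 was at -5.21, Serpinc1 on replicate 2 at 1.76, the oocyte mean on replicate 5 at -2.91, the endothelium mean on replicate 4 at -0.77 and the erythrocyte mean on replicate 3 at -1.23.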

How the results depend on the processing

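limma called 0 probes between the doses in each of the 28 alternatives. The lowest adjusted p in limma ran from 0.125 with the spike-in block to 0.9997 without slide 3. The 1155 probes at an unadjusted p under 0.05 became 2446 with array weights, 759 without slide 3 and 812 to 1673 when 1 array was left out; the cause was not tested. The labels give no animal or litter shared by same-numbered arrays. The deviations of same-numbered arrays correlated at -0.13, 0.16, 0.15, 0.18 and 0.47; number 1 fell short of 0.1, so the numbers were not treated as pairs. With a replicate block 0 probes were called, 1634 had an unadjusted p under 0.05 and the median of the oocyte genes was 1.33. The 18 oocyte genes higher at such a p became 11 with no slide block and 4 without slide 3, which leaves 2 arrays at 20; leaving out 1 array gave 17 to 20, and 21 to 22 genes were higher. The split of probes at such a p was 56.1% higher without the arrays with Cyp17a1 below 0. Of 80 genes named by rank, fixed or at a small p, 68 kept their sign in all alternatives. The other 12 had 95% intervals that include 0. Without the arrays with Cyp17a1 below 0, Cyp17a1 was -0.32, Cyp11a1 -0.12, Star 0.095, Lhcgr -0.090, Ptgfr -0.085 and Prlr -0.025. Without slide 1, Kcne2 was 0.15, Star 0.14, Hsd3b1 0.034 and Kitlg 0.083. Without slide 2, Esr1 was 0.0088, Cyp11a1 -0.065, Ptgfr -0.47 and Prlr -0.057. Without slide 3, Esr2 was -0.024 and Akr1c18 (Akr1c3) 0.26. With no slide block Star was 0.012 and Akr1c3 0.26. After quantile normalization Star was 0.023 and Hsd3b1 0.020. With the replicate block Cyp11a1 was -0.098, Ptgfr -0.025 and Prlr -0.078. Akr1c3 was 0.036 on the 11 arrays alone and 0.038 with array weights. With 1 array left out, Kcne2 ran from -1.76 to 0.018, Star ran from -0.23 to 0.059, Ptgfr ran from -0.053 to 0.32 and Kitlg ran from -0.057 to 0.045. The median 95% interval of a difference reached 0.31 to each side.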

Other observations

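The lower probes at an unadjusted p under 0.05 were dim. The median level over all 20 arrays was -4.10 for the 639 probes lower at 60 and -3.08 for the 516 higher, against -2.12 for all 23258. Without the slide block the 1139 lower probes had a median level of -4.77 and the 181 higher ones -1.62.

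For markers of tissue around the ovary the sign of the dose difference varied with the slide within which it was taken, each time with 1 array for 1 of the doses. The 18 adipocyte genes had a median difference of -0.05 between 60 and 20 mg/kg/day, which was -0.47, -0.57 and 0.46 within slides 1, 2 and 3. The 13 genes of the ovarian surface mesothelium had a median of 0.06, and 0.19, -0.68 and 0.60 within the slides. Among 19 endothelial genes, Lyve1, a receptor of lymphatic endothelium, differed by -0.54 (SE 0.22) and Sox17, a transcription factor of arterial endothelium, by 0.75 (SE 0.26), with a median of -0.02. Hemgn, an erythroid gene, differed by 0.97 and was well above background on 1 of 5 arrays at 20 and on 4 of 6 at 60. It had the largest difference of 9 erythrocyte genes, of which 3 were higher and 6 lower, with a median of -0.01. Pparg, which the adipocyte list holds and granulosa cells also express, differed by 0.36 (SE 0.15). None of these passed the adjusted threshold.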
